A study of Mus musculus with 2 samples.

Results

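The microRNA genes Mir15a, Mir15b, Mir16-1, Mir16-2, Mir322 and Mir503 were examined in the midbrain of mouse embryos. They were chosen by gene name, through the match of each counted Ensembl identifier to its symbol, and all 6 were found among the 1973 counted microRNA genes. The tissue came from B6NCrl embryos of both sexes at embryonic day 10.5, described as healthy and with no treatment, mutation or transgene in the labels. RNA below 30 nt was sequenced in 2 libraries of 1 group, biological replicate 1 from the pooled midbrains of 69 embryos and biological replicate 2 from those of 51. In each library the dissected tissue of all embryos was mixed, so that single embryos and cell types within the midbrain cannot be told apart, and fewer cells of a type and less RNA per cell cannot be told apart either. There is no second condition, and the data give levels, their spread over 2 pools and the difference between the pools.

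MicroRNAs of this family pair with messenger RNAs mainly through the seed, bases 2 to 8 of the mature strand, and lower the stability and translation of their targets. Members of the mir-15/16 family are known for repressing genes that drive the cell cycle, among them cyclin D1 and cyclin E1, and the anti-apoptotic gene Bcl2. The human MIR15A/MIR16-1 locus in DLEU2 is often deleted in chronic lymphocytic leukaemia. Mir322, the mouse counterpart of human MIR424, and its neighbour Mir503 are known for repressing cell-cycle genes during muscle differentiation. At this stage the midbrain wall consists largely of dividing neuroepithelial cells.

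The mature 5p strands show which bases make this a family, and they are printed first because the counts cannot be read without knowing which genes share them. The sequences are from RefSeq (GRCm38.p6), 5′ to 3′, with the seed in capitals.
miR-15a-5p (Mir15a): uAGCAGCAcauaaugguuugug
miR-15b-5p (Mir15b): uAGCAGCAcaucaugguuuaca
miR-16-5p (Mir16-1 and Mir16-2): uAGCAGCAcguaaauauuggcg
miR-322-5p (Mir322): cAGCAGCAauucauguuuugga
miR-503-5p (Mir503): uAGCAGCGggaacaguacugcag
The seed AGCAGCA was common to 5 of the 6 genes. Mir503 carried AGCAGCG, which no other of the 1738 mature entries of the table had at bases 2 to 8, whereas 11 entries had AGCAGCA. Outside the seed the strands diverged. Aligned at base 1, miR-15a-5p and miR-15b-5p were identical at 18 of 22 bases, miR-15a-5p and miR-16-5p at 16 of 22, and miR-16-5p and miR-322-5p at 12 of 22. miR-503-5p matched each of the other 4 strands at 11 or 12 of 22 bases.

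Mir16-1 and Mir16-2 give the same mature 5p strand, and their hairpins have a stretch of 23 bases in common that contains it.
hairpin stretch shared by Mir16-1 and Mir16-2: uagcagcacguaaauauuggcgu
Reads that map to several places were kept out of the gene counts, so a miR-16-5p read that matches this stretch and extends no further has no place in either row. Such reads made up 30.9% and 29.5% of the libraries over all of the genome. The values of Mir16-1 and Mir16-2 are therefore the reads that map to 1 copy alone, and they understate miR-16 by an amount that was not measured. Among the 1674 distinct mature sequences of the table, 62 (3.70%) occurred at more than 1 hairpin or gene. No other strand of the 6 genes did. The 3p strands differed between the copies, and they are printed because they can be assigned.
miR-16-1-3p: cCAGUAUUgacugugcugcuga
miR-16-2-3p: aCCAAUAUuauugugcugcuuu
The longest stretch that the hairpins of Mir15b, Mir322 and Mir503 had in common with any other hairpin of the table was 10, 11 and 12 bases. The hairpin of Mir15a was not used here. Counts are per gene and do not separate the 5p from the 3p strand.

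The 6 genes lie in 3 pairs on 3 chromosomes (mm10). Mir15a (ENSMUSG00000093007.1, chr14:61632027-61632110, minus strand) and Mir16-1 (ENSMUSG00000092995.1, chr14:61631880-61631972) are 54 bases apart within Dleu2, a long non-coding RNA gene. Mir15a overlaps no annotated exon of Dleu2, and the last 13 bases of Mir16-1 overlap an exon of 1 annotated Dleu2 form. Mir15b (ENSMUSG00000065580.1, chr3:69009772-69009835, plus strand) and Mir16-2 (ENSMUSG00000065606.1, chr3:69009902-69009996) are 66 bases apart in an intron of Smc4, which encodes a subunit of the condensin complex that compacts mitotic chromosomes. Mir322 (ENSMUSG00000065418.1, chrX:53054255-53054349, minus strand) and Mir503 (ENSMUSG00000076122.1, chrX:53053984-53054054) are 200 bases apart and lie in no annotated host gene. None of the 6 overlaps a gene on the other strand, and all of their reads lay on what was taken as the gene's own strand.

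All 6 genes were expressed, and Mir322 led by a wide margin. Levels are in CPM, reads per 1000000 gene-assigned reads, with 3297835 such reads in replicate 1 and 3682410 in replicate 2. Mir322 had 47336 and 60564 reads, or 14354 and 16447 CPM, a mean of 15400 ± 1480 CPM (SD, n = 2) and position 13 among all genes. Both libraries thus placed it near the top of the profile, at positions 13 and 12.

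Mir15a followed with 15842 and 15343 reads, 4804 and 4167 CPM, and a mean of 4485 ± 451 CPM (SD, n = 2). Its neighbour Mir16-1 had 10730 and 11196 reads, 3254 and 3040 CPM, and a mean of 3147 ± 151 CPM. These genes of the Dleu2 locus stood at positions 50 and 60. Mir15b had 6108 and 7159 reads, 1852 and 1944 CPM, and a mean of 1898 ± 65.0 CPM, at position 80. Mir16-2 had 2288 and 1845 reads, 694 and 501 CPM, and a mean of 597 ± 136 CPM, at position 133. Mir503 was the lowest with 1184 and 1392 reads, 359 and 378 CPM, and a mean of 369 ± 13.4 CPM, at position 151. Of the 6, Mir16-2 had the widest spread relative to its mean, and Mir503 and Mir15b had narrow ones.

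The order of the levels was the same in both libraries, and the ranges of no 2 neighbours in it overlapped. Mir322 was 3.43 times Mir15a, Mir15a 1.43 times Mir16-1, and Mir16-1 1.66 times Mir15b by their means. Mir15b was 3.18 times Mir16-2 and Mir16-2 1.62 times Mir503. By difference the closest neighbours were Mir16-2 and Mir503, whose nearest values lay 123 CPM apart, and by ratio of means Mir15a and Mir16-1. The order was also the same per annotated base of each gene, where the level was 162 CPM per base for Mir322, 53.4 for Mir15a, 33.8 for Mir16-1, 29.7 for Mir15b, 6.29 for Mir16-2 and 5.19 for Mir503. The places of Mir16-1 and Mir16-2 in the order hold only for reads that map to 1 copy.

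**Figure D1:**
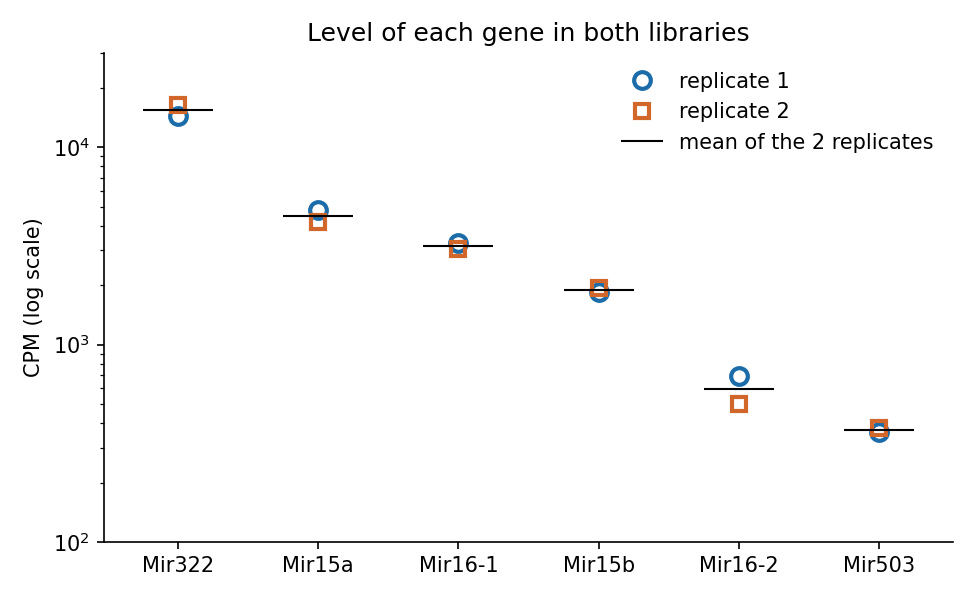
Level of the 6 genes in CPM on a log axis, with a circle for replicate 1, a square for replicate 2 and a line for the mean. Mir322 lies at 14354 and 16447 CPM, and no 2 neighbouring genes overlap in range.

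Together the genes held 83488 reads in replicate 1, or 2.53% of the gene-assigned reads, and 97499 reads in replicate 2, or 2.65% (mean 2.59% ± 0.0821, SD, n = 2). The 5 genes with the seed AGCAGCA on their 5p strand accounted for 98.6% of these reads in both libraries, and Mir503 for the rest. This is a share by gene, with 5p and 3p reads together, and not the share of reads that carry the seed. The X-linked pair held 58.1% of the family's reads in replicate 1 (95% Wilson interval 57.8 to 58.5%) and 63.5% in replicate 2 (63.2 to 63.8%). The Dleu2 pair held 31.8% (31.5 to 32.1%) and 27.2% (26.9 to 27.5%). The Smc4 pair held 10.1% (9.85 to 10.3%) and 9.23% (9.05 to 9.42%). The X-linked locus hence gave more than the autosomal loci combined in each library, with miR-16-5p reads common to the autosomal loci left out. These intervals, and the counting intervals below, hold counting error alone, since the reads carry no molecular identifiers and several may stem from 1 molecule.

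**Figure D2:**
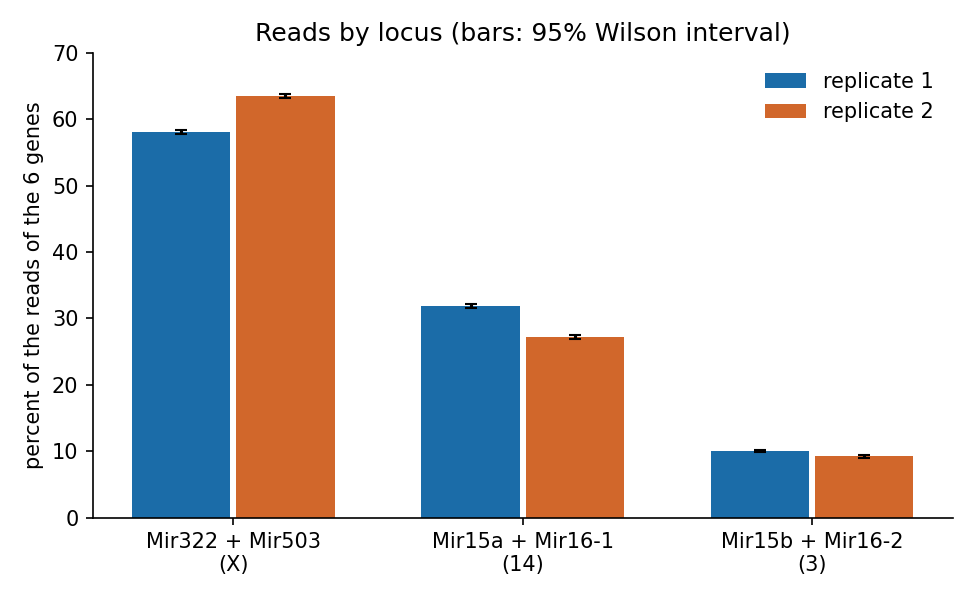
Percent of the reads of the 6 genes that came from each locus, in replicate 1 and replicate 2, with 95% Wilson intervals. The X-linked pair is at 58.1% in replicate 1 and 63.5% in replicate 2, and the Dleu2 pair is at 31.8% and 27.2%.

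Mir322 and Mir503 open a row of 7 microRNA genes that spans 6353 bases of the minus strand of chromosome X, and the levels along this row were very unequal. Mir322 held 81.6% and 84.7% of the 58003 and 71476 reads of the row, and Mir503, the next gene downstream, held 2.04% and 1.95%. Mir351, which starts 996 bases downstream of the annotated 5′ end of Mir322, had 7862 and 7780 reads (2384 and 2113 CPM) and held 13.6% and 10.9%. Its mature 5p strand is printed here because its seed, CCCUGAG, is not that of the family but one it has in common with Mir125a, Mir125b-1 and Mir125b-2, among others.
miR-351-5p (Mir351): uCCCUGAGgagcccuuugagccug
The level thus did not follow the order of the genes, since Mir503 lay below both Mir322 on 1 side of it and Mir351 on the other in each library.

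Further along the row, Mir542 had 1108 and 1112 reads (336 and 302 CPM), and its range lay below that of Mir503, at 359 and 378 CPM. Mir450b had 459 and 574 reads (139 and 156 CPM). Mir450-1 (listed as Mir450a-1) had 42 and 37 reads, and Mir450-2 (Mir450a-2) had 12 and 17. These last genes, like Mir16-1 and Mir16-2, give an identical mature 5p strand at 2 loci, so that reads of it which match both are not in the counts.
miR-450a-5p (Mir450-1 and Mir450-2): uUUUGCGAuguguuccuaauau
Of these 5 neighbours, Mir351 and Mir542 were lower in replicate 2 in the exact binomial test described below (log2 ratios −0.17 and −0.15, Benjamini-Hochberg adjusted p = 9.8e-13 and 0.033), and the other 3 did not pass it. Their median log2 ratio, over the 4 of mean CPM 10 or more, was −0.16, against 0.20 for Mir322. The neighbours were mixed in direction, since Mir450b (0.17) and Mir450-2 (0.33) lay above 0 and Mir450-1 (−0.33) below it. Over all genes tested, 49.7% passed the test.

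**Figure D3:**
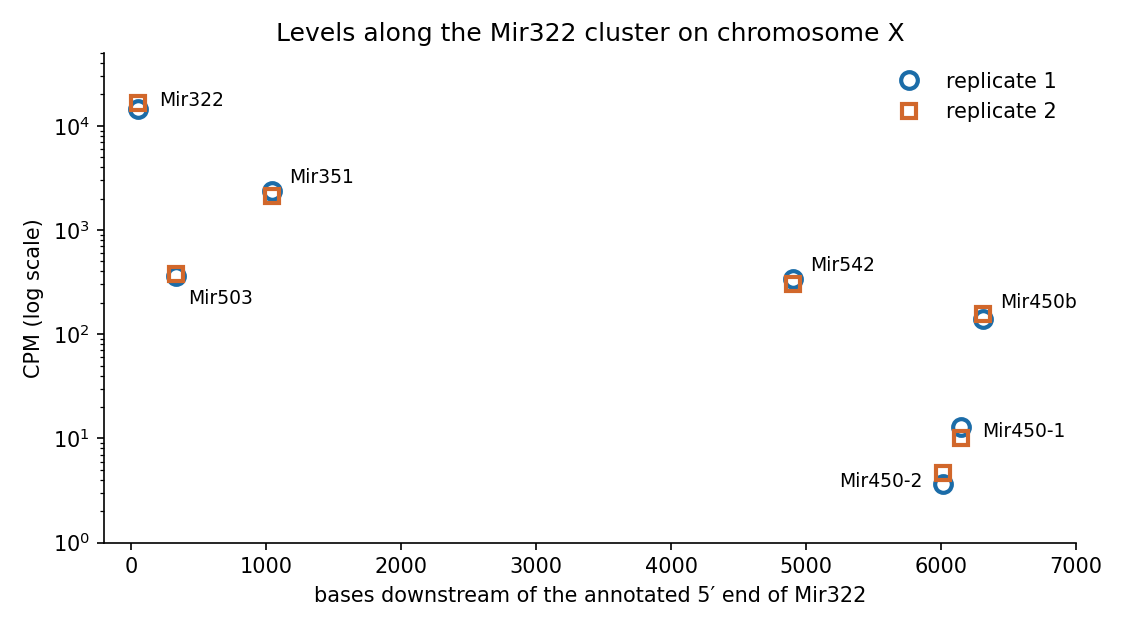
CPM on a log axis against the distance in bases downstream of the annotated 5′ end of Mir322 for the 7 genes of the row, with circles for replicate 1 and squares for replicate 2. Mir322 and Mir351 lie above Mir503, which is between them, and Mir450-1 and Mir450-2 are lowest.

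Of the other counted genes with the family seed, Mir195a was close to Mir503 in level, and Mir195b, Mir6342, Mir6353 and Mir6419 were not detected. Mir195a (ENSMUSG00000065411.2, chr11:70235042-70235135), a relative that forms a pair with Mir497, had 1285 and 1211 reads (390 and 329 CPM, mean 359 ± 43.0, SD, n = 2), a range that included the values of Mir503. Its mature strand is the closest to miR-16-5p among those compared, identical at 19 of 21 bases, and Mir497 gives a strand that matches miR-15a-5p at 17 of 22.
miR-195a-5p (Mir195a): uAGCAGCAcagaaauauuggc
miR-497a-5p (Mir497): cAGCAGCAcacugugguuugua
Mir497 itself was not analysed here. Mir497b, annotated on the other strand over the same bases, had 1659 and 1641 reads, of which 1659 and 1637 were in the column read as the other strand, the one of Mir497. Mir195b, Mir6342, Mir6353 and Mir6419 also have AGCAGCA at bases 2 to 8 and had 0 reads in both libraries, which allows up to 0.910 CPM in replicate 1 and 0.815 CPM in replicate 2 (3 reads). The list of seed relatives, with 3 of its 5 symbols counted, held 0.0834% ± 0.00836 of the gene-assigned reads, and Mir195a and Mir497b were both lower in replicate 2 (log2 ratios −0.24 and −0.17).

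Mir103-1, Mir103-2 and Mir107, which lie in introns of the pantothenate kinase genes Pank3, Pank2 and Pank1, carry the letters AGCAGCA shifted by 1 base, at bases 1 to 7, and hence another seed.
miR-103-3p (Mir103-1 and Mir103-2): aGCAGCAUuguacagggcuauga
miR-107-3p (Mir107): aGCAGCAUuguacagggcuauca
They had 1594 and 1250 CPM in sum, with 4823 and 4280 reads for Mir107, 400 and 310 for Mir103-2 and 33 and 13 for Mir103-1. Mir103-1 and Mir103-2 give the same mature strand, with the same limit as for Mir16-1 and Mir16-2. All 3 were lower in replicate 2 in the binomial test, as were 26.6% of all genes tested.

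Lists of other microRNAs linked to the cell cycle were set beside the family. The 6 genes of the mir-34 and Mir449 list, known as targets of p53 or from multiciliated cells, held 0.142% and 0.158% of the gene-assigned reads. Mir34c led them with 3696 and 3980 reads, Mir449a had 501 and 1309, Mir34a 361 and 381, Mir34b 114 and 149, and Mir449b and Mir449c at most 4. Of the 4 tested, Mir449a alone passed the test, with a log2 ratio of 1.23. The mir-17-92 polycistron and its paralogs, known for promoting proliferation, held 19.2% and 20.4%, with Mir17, Mir20a and Mir93 highest. Of their 15 genes, 10 were called higher in replicate 2 and 3 lower, at a median log2 ratio of 0.12. Over all genes tested, 23.1% were called higher and 26.6% lower. Among the 151 genes at or above the mean CPM of Mir503, 88.7% were called in either direction. Reads that map to several places are not in the counts of these lists.

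Between the libraries the 6 genes differed little in size, and 5 of them by more than counting error. The ratio of replicate 2 to replicate 1 was taken after scaling by TMM, and an exact binomial test per gene (two-sided, Benjamini-Hochberg adjusted over 485 genes with at least 10 reads in sum) compared the reads of the 2 libraries, not conditions. Of all genes tested, 49.7% were called, 23.1% higher and 26.6% lower in replicate 2. Of the 6 genes, 2 were called higher, 3 lower, and Mir503 was not called. This count of 5 of 6 stands beside the 88.7% called among the 151 genes at or above the mean CPM of Mir503, a bound chosen after the values were seen.

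Mir322 was 1.15-fold higher in replicate 2 (95% counting interval 1.14 to 1.16, log2 ratio 0.20, adjusted p = 8.2e-114). Mir15b was 1.05-fold higher (1.02 to 1.09, log2 ratio 0.07, adjusted p = 0.0072). The third gene above 0, Mir503, had a ratio of 1.06 with an interval of 0.978 to 1.14 (adjusted p = 0.27), so that a difference was not detectable at its depth. The genes of the Dleu2 locus were both lower in replicate 2. Mir15a had a ratio of 0.870 (0.851 to 0.890, log2 ratio −0.20, adjusted p = 1.0e-33) and Mir16-1 one of 0.938 (0.913 to 0.963, log2 ratio −0.09, adjusted p = 6.4e-06). Mir16-2 moved most, with a ratio of 0.725 (0.681 to 0.770, log2 ratio −0.46, adjusted p = 3.5e-24). These p-values rest on large read counts and take each read as independent.

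None of the 6 exceeded a ratio of 1.5-fold in either direction. Of the 338 genes of mean CPM 10 or more 17.2% did, and of the 151 genes at or above the mean CPM of Mir503 11.9%, so that 0 of 6 does not set these genes apart. The median log2 ratio of the 6 was −0.01, and that of the 338 genes was −0.03. The median absolute log2 ratio was 0.15 for the 6 and 0.26 for the 338. These sets are not matched in level, since the 338 reach down to a mean CPM of 10, where counting error is larger relative to the level. All 6 lie at or above the mean CPM of Mir503, so the values do not show that the 6 were steadier. With DESeq2 size factors the median log2 ratios of both sets changed sign, to 0.03 and 0.00, a shift of 0.03. Each of the 6 genes kept its direction and its call under that scaling.

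**Figure D4:**
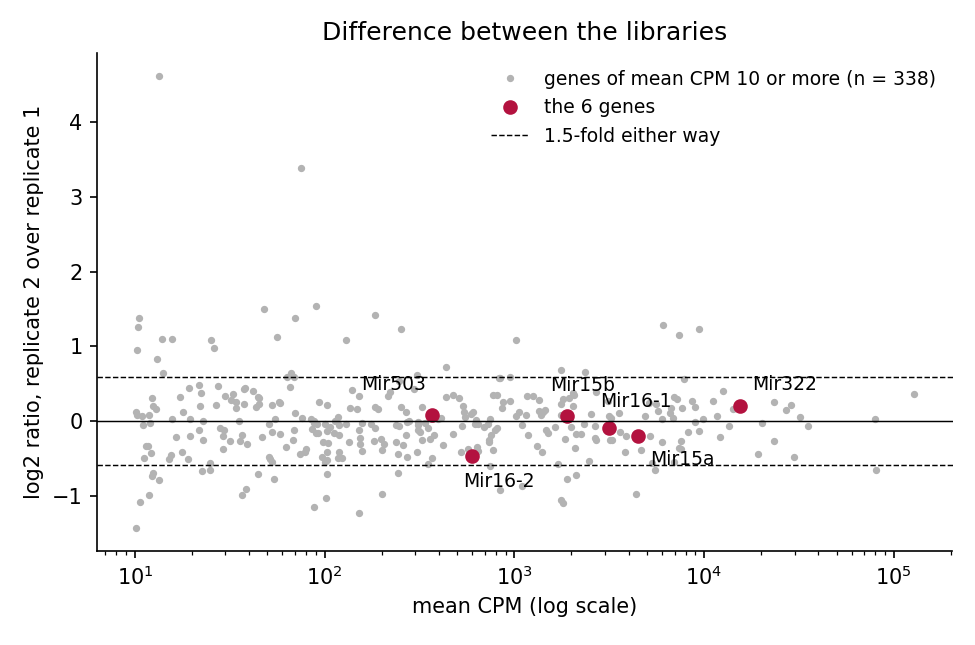
Log2 ratio of replicate 2 over replicate 1 against mean CPM on a log axis for 338 genes (grey) and the 6 genes (red), with dashed lines at 1.5-fold. All 6 lie between the dashed lines, with Mir16-2 lowest at −0.46 and Mir322 highest at 0.20.

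The ratio of 2 genes within a library does not depend on scaling between libraries, and it was taken for each pair of neighbouring hairpins. Mir15a had 1.48 reads for each read of Mir16-1 in replicate 1 (95% counting interval 1.44 to 1.51) and 1.37 in replicate 2 (1.34 to 1.40). The ratio of Mir322 to Mir503 was 40.0 (37.7 to 42.4) and 43.5 (41.3 to 45.9). The ratio of Mir15b to Mir16-2 was 2.67 (2.54 to 2.80) and 3.88 (3.69 to 4.08). This last pair was the one that moved most, with log2 ratios between the libraries of 0.07 for Mir15b and −0.46 for Mir16-2.

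By Fisher's exact test on the reads of each pair by library (two-sided, adjusted over the 3 pairs), the ratio changed 0.928-fold for Mir15a to Mir16-1 (interval 0.897 to 0.961, adjusted p = 3.6e-05). It changed 1.45-fold for Mir15b to Mir16-2 (1.35 to 1.56, adjusted p = 4.0e-25) and 1.09-fold for Mir322 to Mir503 (1.01 to 1.18, adjusted p = 0.035). These tests too compare 2 libraries. Among 64 pairs of adjacent microRNA genes less than 1 kb apart on a strand, both of mean CPM 10 or more, the members of a pair differed in log2 ratio by 0.17 at the median and by 1.09 at most. Mir15b and Mir16-2, with a difference of 0.54, stood at position 11 of the 64, Mir322 and Mir503 (0.12) at position 42, and Mir15a and Mir16-1 (0.11) at position 47. The reads of Mir16-1 were 4.69 times those of Mir16-2 in replicate 1 and 6.07 times in replicate 2. This ratio, and the pair ratios with Mir16-1 or Mir16-2, cover only reads that map to 1 copy. They do not give the ratios with the shared miR-16-5p reads included.

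**Figure D5:**
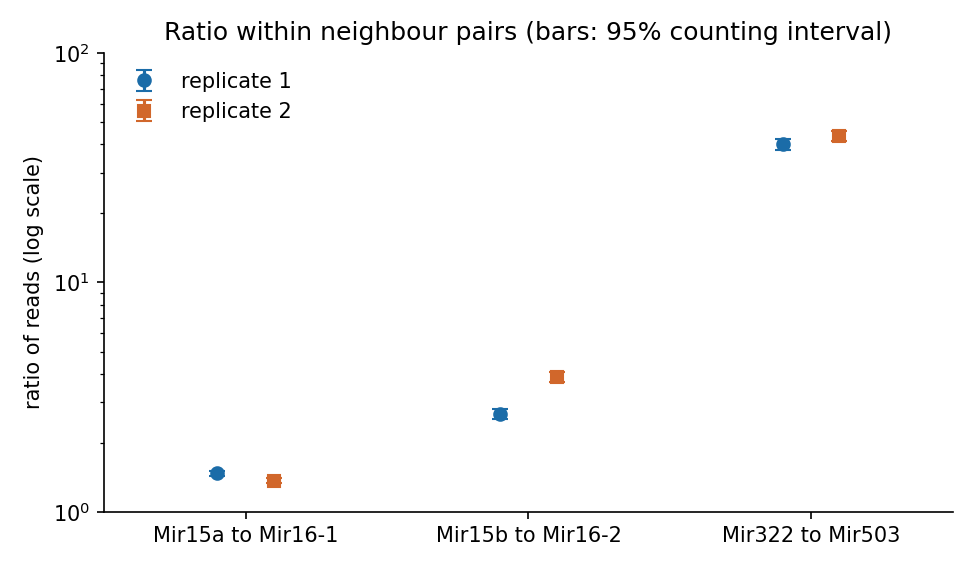
Ratio of reads within the 3 neighbour pairs on a log axis, in replicate 1 (circles) and replicate 2 (squares), with 95% counting intervals. The intervals of the libraries are apart for Mir15b to Mir16-2, at 2.67 and 3.88, and for Mir15a to Mir16-1, at 1.48 and 1.37, and overlap for Mir322 to Mir503. For Mir16-1 and Mir16-2 only reads that map to 1 copy are counted.

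Markers of the tissue and of other cell types differed between the pools as well. Of 8 neural markers 6 were matched by symbol to a counted gene, with 27881 and 29877 CPM in sum. Of the 4 of these that were tested, 1 was called higher and 2 lower in replicate 2. Of all genes tested, 23.1% were called higher and 26.6% lower. Mir92b of neural progenitors had 21245.5 and 25352.4 CPM (mean 23299 ± 2904, SD, n = 2) and was the 1 called higher. Mir135b had 6306 and 4278 CPM (mean 5292 ± 1433) and was called lower, as was Mir9-3. The higher sum in replicate 2 thus came from Mir92b. Mir9-3 had 452 and 246 reads, Mir135a-2 627 and 654, Mir9-2 3 and 4, and Mir124a-1 7 and 2. The Mir9 copies give the same mature strands, and the limit stated for Mir16-1 and Mir16-2 holds for them. It may hold for Mir124a-1 and its copies as well, whose mature strands were not compared here. The other copies counted of Mir124a-1, a gene known from neurons, are Mir124a-2 with 56 and 36 reads and Mir124a-3 with 16 and 34. Mir124a-2 stood on the list as Mir124-2, a name that matched no counted gene, so the sum and the calls above leave it out. It was tested and called lower in replicate 2 (log2 ratio −0.78, exact binomial test, adjusted p = 0.026). Mir124a-3 was not on the list and was added after its values were seen. The 6 mesenchyme markers were all called lower in replicate 2, with 16222 and 13241 CPM in sum. Mir199a-1 among them had 17 and 7 reads and an adjusted p of 0.049 in the exact binomial test. The endothelial marker Mir126a was higher, at 26450 and 30780 CPM. Among the 151 genes at or above the mean CPM of Mir503, 88.7% were called in either direction. The 3 erythroid markers summed to 404 and 374 CPM, and most of this sum was Mir451a, with 1167 and 1087 reads and called lower in replicate 2. Mir144, with 106 and 161 reads, and Mir486, with 58 and 128, were both called higher. The 3 of 4 leukocyte markers that were counted summed to 1270 and 1446 CPM. Of the leukocyte sum, 682 and 865 CPM came from the Mir142b row, with 2250 and 3184 reads. All of these reads lay in the column read as the other strand, where Mir142 is annotated. The 3 heart and skeletal muscle markers, genes of tissues in which Mir322 and Mir503 are known, summed to 49.7 and 55.7 CPM. No counted marker was at 0 reads, which holds for the listed genes alone. Of muscle microRNAs not on the list, Mir1a-1, Mir133a-2 and Mir133b had 0 reads in both libraries and Mir499 had 18 and 40. Reads that map to several places are not in these rows. The part of the marker differences between the pools in those of the 6 genes was not tested.

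The genes most alike in level over the 2 libraries, by the distance of their log2(CPM + 0.5) values, were Mir130b and Mir106b for Mir322, Mir23b and Gm25301 for Mir15a, and Mir361 and Mir379 for Mir16-1. For Mir15b they were Mir101b and Mir532, for Mir16-2 Mir27b and Mir598, and for Mir503 Mir32 and Mir185. Distances ran from 0.04 for Mir503 and Mir32 to 0.32 for Mir322 and Mir106b. With 2 libraries this distance joins the level and the ratio between the libraries in 1 value.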

How the data were processed

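For each library the authors deposited raw counts of reads by microRNA gene, derived from alignments to mm10 with the GENCODE M4 annotation, per the file headers (the text deposited with each file). The aligner, trimming and counting settings were not given in the sources used here. Of 3 unnamed count columns the first was used, which equals the sum of the others in every gene row. These were read as strands, the gene's own holding 97.4% and 97.3% of gene reads. The 4 rows that name no gene, 57.8% and 60.9% of all reads, stayed out of library sizes.

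Identifiers were matched without version to GENCODE M21 (GRCm38, the same build), 1894 of 1973, and sequences to RefSeq. All 6 genes matched a mature sequence and 5 a hairpin. CPM and log2 ratios with 0.5 added reads and TMM scaling (edgeR 4.0.16) were computed. Exact binomial and Fisher tests used scipy 1.17.1, and the former was checked on simulated Poisson counts with known folds. The simulation held no other variation between pools and no duplicate reads, so it could not test the effect of these. No group test was possible with 1 group of 2 libraries. Alternatives were DESeq2 1.42.0 size factors, total counts, 2 added reads, no read filter, the strand column, another denominator, length scaling and leaving out each replicate. The members and lists were chosen with earlier results of these data known. Named genes were the 6 genes, the counted members of the fixed lists (the 3 highest of the mir-17-92 list), some of the cell type markers, and the 2 genes nearest in level to each of the 6. Mir6342, Mir6353 and Mir6419 were named after a seed search. Mir124a-3, Mir1a-1, Mir133a-2, Mir133b and Mir499 were on no list and were named after their values were seen.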

Additional observations from a re-analysis of the deposited data

Results flagged for a closer look

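The Mir497b row had 1659 reads in replicate 1 and 1637 in replicate 2 in the column read as the strand opposite to its annotation, more than the 3 reads that a count of 0 allows. Mir497, whose 5p strand has the family seed, is annotated over the same bases on that strand. The Mir142b row likewise had all of its 2250 and 3184 reads in the column of the opposite strand, where Mir142 is annotated. With 2 libraries of 1 group, no check for outlying samples or for differences between groups applied.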

How the results depend on the processing

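Each of the 6 genes kept its direction and its side of the threshold with DESeq2 size factors, total counts, the strand column and no read filter, and its direction with 2 added reads, which do not enter the test. The number of genes called among the 6 was 5 in each of these fits. Over all genes the number called ran from 227 with the strand column to 241, and was 228 with no filter beyond 1 read in sum (769 tested). With DESeq2 size factors 120 were called higher and 115 lower. Leaving the most abundant gene out of the denominator moved the share of the 6 genes from 2.59% to 2.97%, by construction of that alternative. Leaving out a replicate gave shares of 2.53 to 2.65%, ratios of 1.37 to 1.48 for Mir15a to Mir16-1, 2.67 to 3.88 for Mir15b to Mir16-2 and 40.0 to 43.5 for Mir322 to Mir503. No paired analysis was possible because there is 1 group. Reads kept out as multiply mapped are missing from Mir16-1 and Mir16-2 to an extent that was not measured, and the 2 pools limit every statement on spread.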
